A study of Homo sapiens with 6 samples.

Results

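The genes described here are 7 matrix metalloproteinases (MMP1, MMP2, MMP3, MMP7, MMP10, MMP13 and MMP14) and 3 tissue inhibitors of metalloproteinases (TIMP1, TIMP2 and TIMP3). They were found as every probe set whose platform annotation gave 1 of these symbols, which yielded 16 probe sets for the 10 genes, out of 11963 genes with a named probe set. The samples were HK2 cells, a line derived from the proximal tubule of an adult human kidney. The cells were transfected at 30% confluence with an siRNA against OCRL, the inositol 5-phosphatase gene mutated in Lowe syndrome, or else with a non-targeting one, and were collected after 96 h. Each group had 3 arrays from independent experiments, the OCRL siRNA group and the control siRNA group, and this number of arrays sets the precision. All samples were exposed to the transfection reagent, and an untransfected group was not analysed here. The labels do not say whether the OCRL siRNA was 1 sequence or a pool, and effects of the siRNA other than on OCRL were not tested.

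Matrix metalloproteinases are zinc-dependent peptidases that cut collagens, other matrix proteins and cell surface proteins. They are made as inactive precursors and are switched on when the propeptide is cut, by plasmin or by another metalloproteinase. TIMPs bind the active site of the mature enzymes, and TIMP2 also holds the MMP2 precursor on MMP14, the membrane enzyme that activates it. In the kidney these genes are known from tubular injury and from fibrosis, in which matrix turnover changes.

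The 10 genes were chosen by their log2 differences in this same comparison, or with those differences in view, so the members' differences, calls and counts below are descriptions and no p-value is given for them. A probe set is named as called where its Benjamini-Hochberg adjusted p over all 22215 tested probe sets was under 0.05 in limma, and a gene is represented by its brightest probe set. Values are log2 intensities, differences are OCRL siRNA minus control siRNA, and SE is the moderated standard error. Intensities of different probe sets cannot be ranked as amounts of RNA.

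OCRL itself was at 7.52, 7.49 and 7.40 in the OCRL siRNA arrays, against 9.49, 9.48 and 9.50 in the control arrays, on its brighter probe set. This was a fall of 4.06-fold (log2 difference -2.02, SE 0.048, limma adjusted p = 1.24e-05), with 24.6% of the control level left, and the dimmer probe set had 49.7% left. An exact permutation test over the arrays (two-sided) returned p = 0.1 for both probe sets, the smallest that 3 arrays against 3 allow. Over all probe sets 5137 were called, 57.2% of them higher, and this share was 52.2% after quantile normalisation and 42.0% after median centring. Of 9 epithelial markers 5 were called lower, 1 higher (CLDN1) and 3 not, where 10.5% of all genes were called lower and 15.5% higher. Among those not called, KRT18 averaged 13.30 in OCRL siRNA cells and 13.34 in control cells. CDH1, also not called, was under the lower quartile on each array. KRT7, called lower, averaged 9.58 in OCRL siRNA cells and 11.06 in control cells. The proximal tubule receptor gene LRP2 was under the lower quartile on each array. The kidney epithelial transcription factor gene PAX8 averaged 10.92 in OCRL siRNA cells and 11.21 in control cells, and it was called lower.

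Of the 10 genes, 5 were called higher in OCRL siRNA cells (MMP1, MMP3, MMP13, MMP14 and TIMP2), 2 lower (MMP7 and TIMP3), and 3 were not called (MMP2, MMP10 and TIMP1). Over all genes 26.0% were called, 15.5% higher and 10.5% lower. The rise was several-fold for the collagenases MMP1 and MMP13 and the stromelysin MMP3, and under 1.5-fold for MMP14 and TIMP2. Of the 16 probe sets, 7 were called higher and 2 lower, where 23.1% of all probe sets were called, 13.2% higher and 9.89% lower. Groups did not overlap in 10 of the 16 probe sets, and in 40.7% of all probe sets. The median difference of the 10 genes was 0.24, beside 0.00 over all genes. Groups did not overlap in 8 of the 10 genes and in 44.9% of all genes. Nothing is read from these counts, since the choice of the genes used the same comparison.

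**Figure D1:**
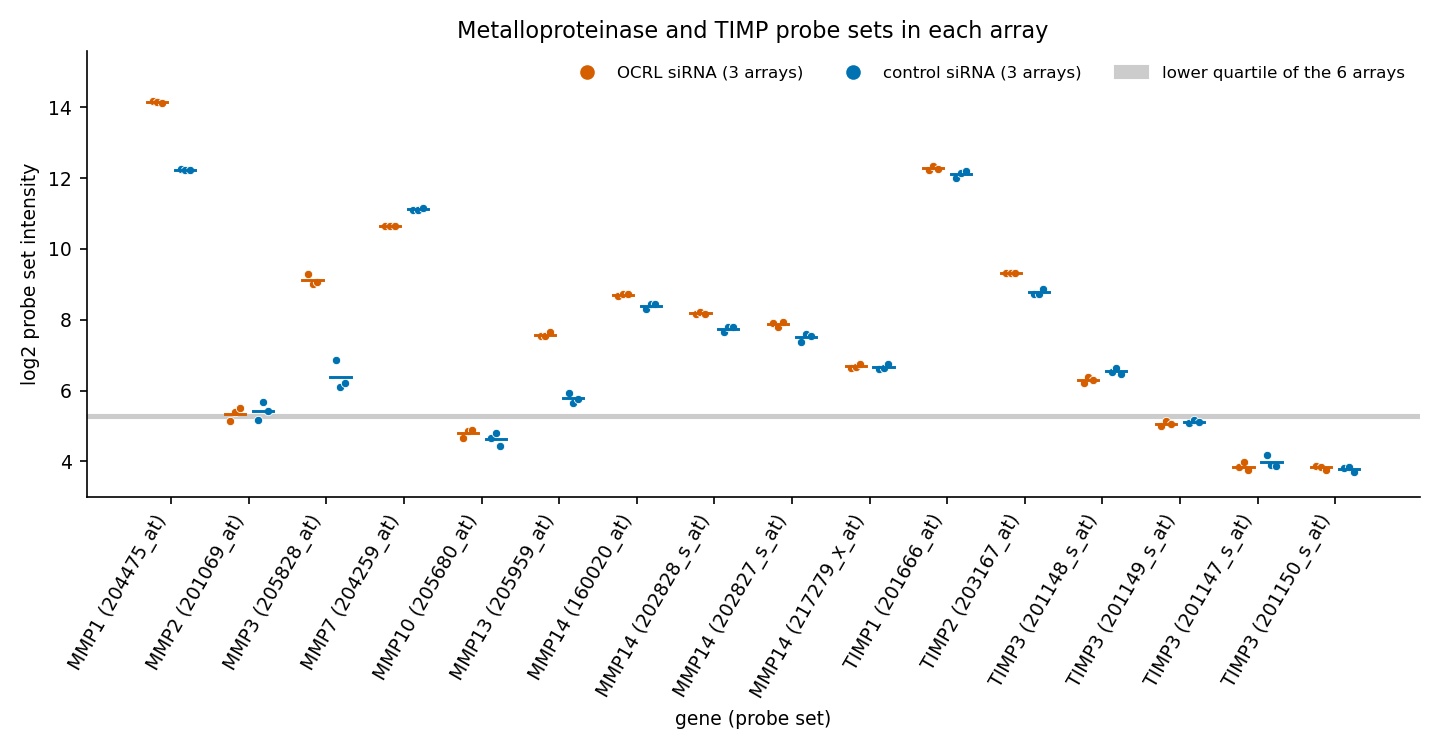
Log2 intensity (vertical axis) of each of the 16 probe sets of the 10 genes in the 3 OCRL siRNA arrays (orange) and the 3 control siRNA arrays (blue). Points are arrays, short lines are group means, and the grey band spans the lower quartiles of the 6 arrays. MMP1, MMP3 and MMP13 stand clearly apart between the groups, MMP7 is lower in the OCRL siRNA arrays, and MMP10 lies under the band in both.

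Promoters are shown first, because they set members with different calls side by side. The table, of build GRCh38.p14, held promoters of 5 members, with 250 bases before and 50 after the start site. These were MMP7, MMP10, MMP14, TIMP1 and TIMP3, so the promoters of MMP1, MMP3 and MMP13 were not searched. The stretch from 110 bases before the start site to the base before it is printed, in the direction of transcription, for MMP7, which was called lower, for MMP10, which was not called, for MMP14, which was called higher, and for TIMP1, which was not called. Capitals mark matches to TGANTCA, to TATAAA, the TATA box, and to AGGAAG, a form bound by ETS factors. TGANTCA, with N any base, is a loose form of the site bound by AP-1 factors. Both strands were searched.
MMP7 (chr11:102530748-102530857, minus strand): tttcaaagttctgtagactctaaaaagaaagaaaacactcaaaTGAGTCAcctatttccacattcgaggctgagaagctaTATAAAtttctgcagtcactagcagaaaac
MMP10 (chr11:102780629-102780738, minus strand): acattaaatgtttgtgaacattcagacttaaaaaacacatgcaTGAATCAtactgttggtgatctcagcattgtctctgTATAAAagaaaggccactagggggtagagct
MMP14 (chr14:22836475-22836584, plus strand): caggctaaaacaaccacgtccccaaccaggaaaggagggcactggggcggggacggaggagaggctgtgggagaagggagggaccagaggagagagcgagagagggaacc
TIMP1 (chrX:47582326-47582435, plus strand): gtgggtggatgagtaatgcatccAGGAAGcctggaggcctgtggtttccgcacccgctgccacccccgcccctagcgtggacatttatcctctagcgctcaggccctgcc

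The MMP7 and MMP10 promoters each held 1 match to TGANTCA, in both genes beginning 67 bases before the start site. The match read TGAGTCA in MMP7 and TGAATCA in MMP10. A TATAAA match began 30 bases before the start site in MMP7 and 31 in MMP10. MMP7, called lower, and MMP10, too dim for a change to be read, thus shared this placing of matches. It says nothing on outcome. MMP7 also held AGGAAG matches beginning 169 and 145 bases before the start site, beyond the stretch printed, and TIMP1 held 1 beginning 87 bases before it. MMP14 and TIMP3 had no match to any of the 3 motifs in the whole window of 300 bases, which says only that these letters are not there. Of 35116 promoter windows in the table, 7.71% held TGANTCA, 11.5% TATAAA and 33.6% AGGAAG. No 2 matches overlapped in these promoters. A match is a description of the letters and not of binding.

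The collagenases are the enzymes that can cut intact fibrillar collagen. MMP1, the interstitial collagenase, was at 14.17, 14.17 and 14.14 in OCRL siRNA cells, against 12.25, 12.23 and 12.22 in control cells. Arrays of a group lay close together, and the groups were separated by 1.89. MMP1 averaged 14.16 ± 0.019 in OCRL siRNA cells and 12.23 ± 0.0149 in control cells (SD, n = 3 each), a 3.81-fold rise (log2 difference 1.93, SE 0.0396) and the rise of rank 6 among all genes. The highest value of any probe set was 15.04 to 15.08 on the 6 arrays, so MMP1 in OCRL siRNA cells lay near the top of the measured range. Whether its signal was compressed there was not tested.

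MMP13, the collagenase best known from cartilage and bone, was at 7.53, 7.54 and 7.66 in OCRL siRNA cells, against 5.93, 5.66 and 5.75 in control cells. Each OCRL siRNA array was above each control array, by at least 1.61. The means were 7.58 ± 0.0704 in OCRL siRNA cells and 5.78 ± 0.135 in control cells (SD, n = 3 each), a 3.48-fold rise (log2 difference 1.80, SE 0.0775) of rank 8. The control values were above the lower quartiles of the arrays, which ran from 5.23 to 5.31, but close to them.

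The stromelysins cut proteoglycans, laminin and fibronectin and activate other metalloproteinase precursors. MMP3, which completes the activation of the MMP1 precursor, was at 9.28, 9.02 and 9.06 in OCRL siRNA cells, against 6.86, 6.11 and 6.20 in control cells. Control replicate 1 was the highest of its group, and still lay 2.16 below the lowest OCRL siRNA array. MMP3 averaged 9.12 ± 0.141 in OCRL siRNA cells and 6.39 ± 0.408 in control cells (SD, n = 3 each). This was a 6.63-fold rise (log2 difference 2.73, SE 0.194), the largest among the 10 genes and of rank 2 among all genes, and the difference was 2.96 without control replicate 1.

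MMP10, a close relative of MMP3 in the same gene cluster, was not called. It was at 4.67, 4.86 and 4.88 in OCRL siRNA cells, against 4.65, 4.79 and 4.42 in control cells. The groups overlapped, and every value was below the lower quartile of its array. The log2 difference was 0.18 (SE 0.104), with a 95% interval of -0.06 to 0.43. RMA compresses differences at so low an intensity, so neither this difference nor its interval bounds a change of MMP10.

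MMP7, or matrilysin, is a small enzyme without the hemopexin domain and is made by epithelial cells, including injured tubules. It was at 10.65, 10.64 and 10.66 in OCRL siRNA cells, against 11.10, 11.11 and 11.14 in control cells. The groups were 0.44 apart, far more than the spread within either. MMP7 averaged 10.65 ± 0.0115 in OCRL siRNA cells and 11.12 ± 0.022 in control cells (SD, n = 3 each), which was 72.2% of the control level (log2 difference -0.47, SE 0.0397). MMP7 was the only metalloproteinase of the 7 that was called lower.

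MMP14, the membrane-anchored collagenase that activates the MMP2 precursor, had 4 probe sets. The brightest was at 8.66, 8.72 and 8.72 in OCRL siRNA cells, against 8.31, 8.44 and 8.45 in control cells. That was a 1.23-fold rise (log2 difference 0.30, SE 0.0539) with no overlap. The probe set of rank 2 in brightness was at 8.17, 8.23 and 8.16 in OCRL siRNA cells, against 7.66, 7.80 and 7.79 in control cells (log2 difference 0.43, SE 0.0533), and the next differed by 0.37 (SE 0.0698). Both were called higher, with no overlap. The dimmest, a probe set marked as able to bind other transcripts, averaged 6.68 in OCRL siRNA cells and 6.67 in control cells, was not called and had overlapping groups (log2 difference 0.02, SE 0.0573).

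MMP2, the gelatinase that MMP14 activates, stayed near the lower quartile of the arrays. It was at 5.14, 5.38 and 5.52 in OCRL siRNA cells, against 5.17, 5.68 and 5.41 in control cells. The groups overlapped throughout, with a difference of -0.07 (SE 0.145) and a 95% interval of -0.42 to 0.27. The sign of this difference changed when single arrays were left out (-0.20 to 0.06), and MMP2 had no call in any setting that kept it.

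The TIMP genes did not move together. TIMP1, the secreted inhibitor of most soluble metalloproteinases, was at 12.24, 12.35 and 12.25 in OCRL siRNA cells, against 12.01, 12.15 and 12.19 in control cells. The groups did not overlap, by a margin of 0.05, and the gene was not called (log2 difference 0.16, SE 0.0625, 95% interval 0.02 to 0.31). It was called higher with eBayes trend and robust settings and with dim probe sets left out, at the same difference.

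TIMP2, which forms the MMP14 and MMP2 complex, was at 9.32, 9.31 and 9.32 in OCRL siRNA cells, against 8.74, 8.74 and 8.86 in control cells. Its groups lay 0.45 apart, and TIMP2 averaged 9.32 ± 0.00621 in OCRL siRNA cells and 8.78 ± 0.0702 in control cells (SD, n = 3 each). This 1.45-fold rise (log2 difference 0.54, SE 0.0493) was larger than that of the brightest MMP14 probe set. Within this complex TIMP2 and MMP14 were thus called higher and MMP2 was not called.

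TIMP3, the inhibitor that stays bound to the matrix, had 4 probe sets, and only the brightest was called. That probe set was at 6.20, 6.40 and 6.31 in OCRL siRNA cells, against 6.51, 6.64 and 6.48 in control cells. The log2 difference was -0.24 (SE 0.0686), and the groups missed overlap by 0.08. The other probe sets lay below the lower quartile on all arrays, had overlapping groups, and differed by -0.13, -0.06 and 0.04. The call of TIMP3 was lost in 7 of 11 settings, among them the mean of its probe sets (log2 difference -0.10) and the omission of OCRL siRNA replicate 1 or 3 or of control replicate 1, 2 or 3, where it ran from -0.27 to -0.19.

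**Figure D2:**
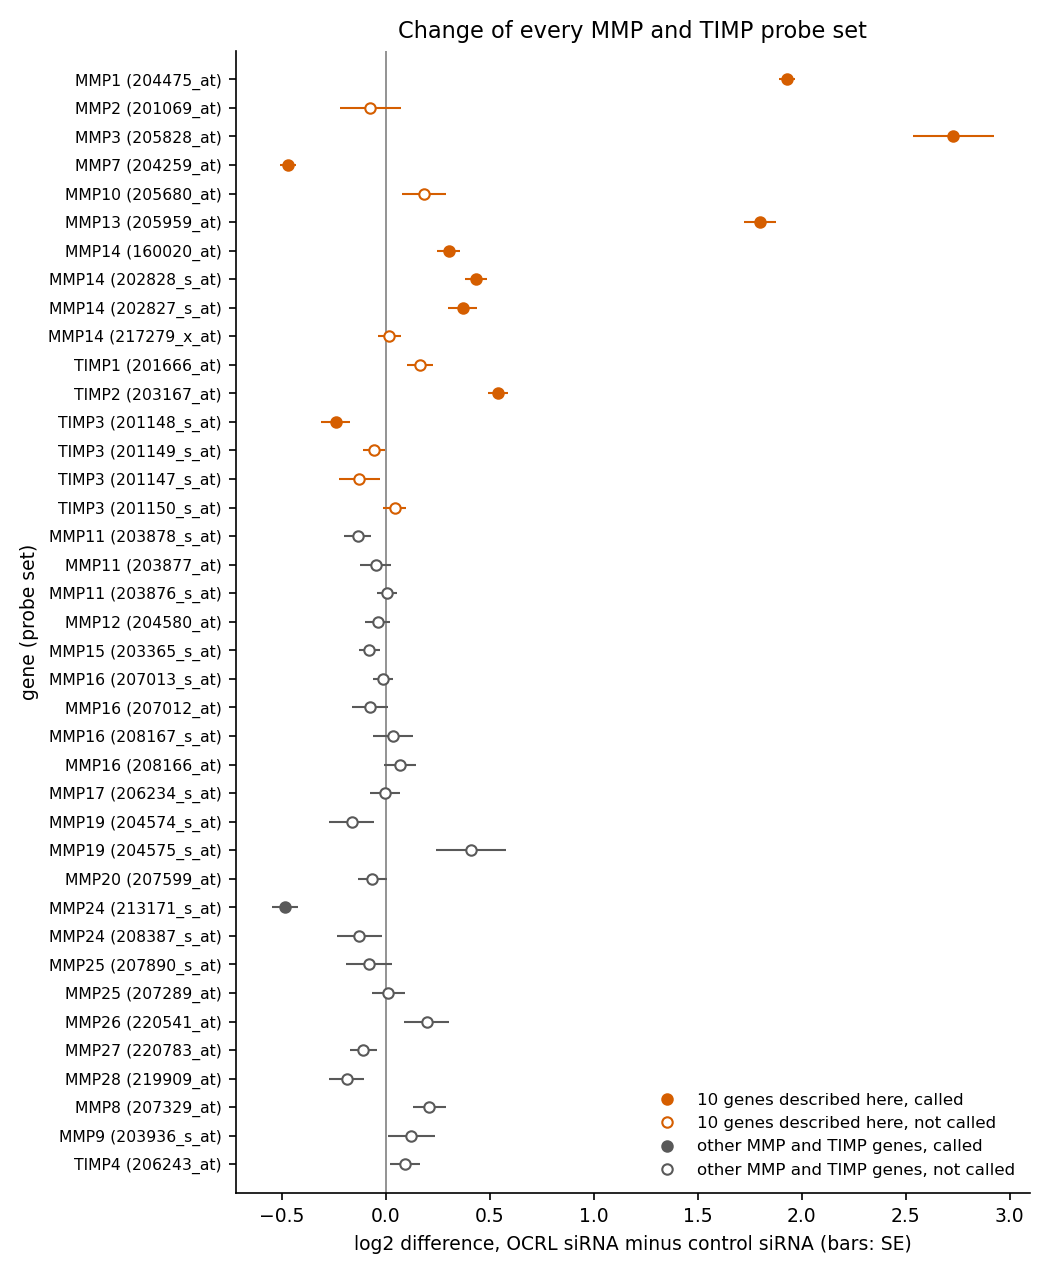
Log2 difference, OCRL siRNA minus control siRNA (horizontal axis, bars are the moderated SE), of every MMP and TIMP probe set. Orange marks the 10 genes described here, grey the other family genes, and filled points were called. MMP3, MMP1 and MMP13 lie at 2.73, 1.93 and 1.80, and no other family probe set exceeds 0.54.

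Of 17 further MMP and TIMP genes 15 were measured, and 1 was called, where 26.0% of all genes were. This was MMP24, a membrane-type enzyme best known from the nervous system. MMP24 fell, to 7.45, 7.46 and 7.62 in OCRL siRNA cells, against 7.94, 7.99 and 8.06 in control cells (log2 difference -0.48, SE 0.0632, limma adjusted p = 0.00221). Its dimmer probe set was not called (log2 difference -0.13), and the mean of both was -0.30. MMP24 kept its call in the 12 settings that gave it a value. Without _s_at and _x_at probe sets MMP24 had no value. In that setting 0 of the 10 genes left were called, with 1 at an unadjusted p under 0.05. The median difference of the 15 genes was -0.06, beside 0.00 over all genes, and 7 lay below the lower quartile on all arrays. The gelatinase MMP9 averaged 7.44 ± 0.13 in OCRL siRNA cells and 7.32 ± 0.204 in control cells (SD, n = 3 each, limma adjusted p = 0.504). Leaving out control replicate 1 gave 3 calls, with MMP8 and MMP19 added, and leaving out control replicate 2 gave 2, with MMP26 added.

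MMP1, MMP3, MMP7, MMP10 and MMP13 belong to a cluster of 9 MMP genes on chromosome 11, in the order MMP7, MMP20, MMP27, MMP8, MMP10, MMP1, MMP3, MMP12 and MMP13 in the RefSeq gene table. All 9 were measured, of which 3 were called higher, 1 lower and 5 not called. The 3 that rose were not all adjacent, as MMP12, between MMP3 and MMP13, averaged 3.53 in OCRL siRNA cells and 3.56 in control cells (log2 difference -0.04, SE 0.0601, limma adjusted p = 0.709). All 5 genes of the cluster without a call were below the lower quartile on every array, so that a change in them would be compressed. Beside the cluster, 9 of 16 listed genes were measured, and DYNC2H1 (log2 difference 0.24), CASP4 (0.35) and YAP1 (0.23) were called higher, where 15.5% of all genes were. These small differences are below those of MMP1, MMP3 and MMP13 in size, and none of the 3 calls remained without OCRL siRNA replicate 1, without control replicate 2, or with replicate number as a block. Without OCRL siRNA replicate 3 CASP4 alone was called. After median centring 1 flanking gene was called higher and 2 lower.

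**Figure D3:**
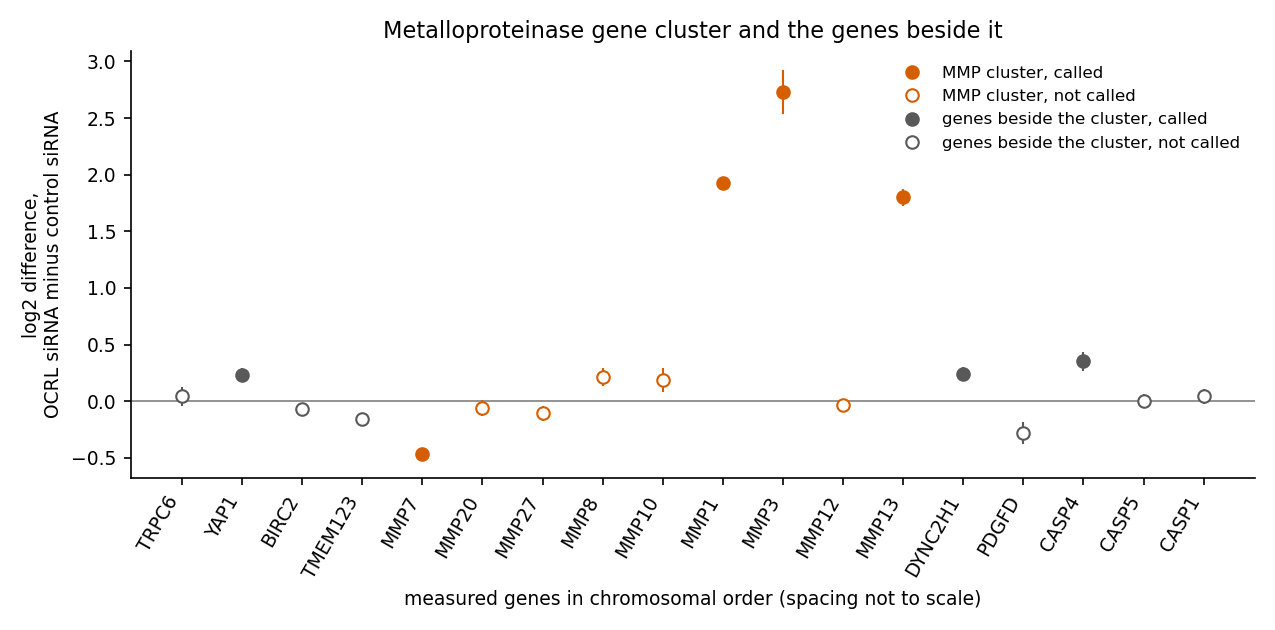
Log2 difference, OCRL siRNA minus control siRNA (vertical axis, bars are the moderated SE), of the measured genes in their order along chromosome 11, with spacing not to scale. Orange marks the 9 MMP genes of the cluster, grey the genes beside it, and filled points were called. MMP1, MMP3 and MMP13 stand at 1.93, 2.73 and 1.80, while the flanking genes lie between -0.28 and 0.35.

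The plasminogen system yields plasmin, which cuts the precursors of MMP1 and MMP3. Of 12 measured genes of 14 listed, 4 rose and 0 fell in the limma fit, with 7 at an unadjusted p under 0.05. Over all genes 15.5% were called higher and 10.5% lower, and the list's median difference was 0.14, beside 0.00 over all genes. The tissue-type activator gene PLAT was at 8.08, 7.95 and 7.88 in OCRL siRNA cells, against 6.93, 6.74 and 6.69 in control cells, a 2.27-fold rise (log2 difference 1.18, SE 0.0828, limma adjusted p = 1.81e-04). The groups did not overlap. The urokinase receptor gene PLAUR (0.35, SE 0.0562), the urokinase gene PLAU (0.26, SE 0.0545) and SERPINE2, an inhibitor of these activators (0.18, SE 0.0448), rose by less. SERPINE2 lost its call in 7 of 13 settings, which were the replicate block (limma adjusted p = 0.0602), median centring, and the omission of any 1 array other than control replicate 1. PLAUR lost its call when _s_at and _x_at probe sets were left out (0.06). The count was 2 without OCRL siRNA replicate 2 and 2 without OCRL siRNA replicate 3, since PLAU and SERPINE2 lost their calls, and after median centring 3 genes were higher and 1 lower.

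Among 26 partners, activators and further inhibitors, all measured, 6 fell and 3 rose, where 10.5% of all genes fell and 15.5% rose, and the list's median difference was -0.06. RECK, a membrane-bound inhibitor of MMP2, MMP9 and MMP14, was at 6.99, 6.70 and 6.80 in OCRL siRNA cells, against 8.45, 8.19 and 8.22 in control cells. It fell 2.74-fold on this probe set (log2 difference -1.46, SE 0.0981, limma adjusted p = 1.62e-04), and the groups were 1.20 apart. Its other probe sets were not called, at log2 differences of -0.01 and, for one below the lower quartile on all arrays, 0.10. The mean of the RECK probe sets differed by -0.46. TFPI2, a secreted inhibitor of plasmin and other serine proteases, rose (log2 difference 0.52, SE 0.0435). The caveolar protein gene CAV1 (-0.74, SE 0.0518) and THBS2, a matrix protein that aids the uptake of MMP2 (-0.52, SE 0.0505), fell. Median centring left 2 genes of this list called higher and 8 called lower.

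Of 24 measured genes of the related ADAM and ADAMTS peptidases and their relatives, of 30 listed, 3 rose and 7 fell, beside 15.5% and 10.5% of all genes. The list's median difference was -0.12. ADAM19, a membrane sheddase, rose 1.89-fold (log2 difference 0.92, SE 0.0497, limma adjusted p = 7.51e-05). The aggrecanases ADAMTS5 and ADAMTS1 fell (log2 differences -1.35, SE 0.104, and -0.75, SE 0.0447), as did ADAM12 (-0.72, SE 0.0683). The mean of the probe sets gave 0.45 for ADAM19, and all 4 genes kept their calls in the settings that gave them a value.

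**Figure D4:**
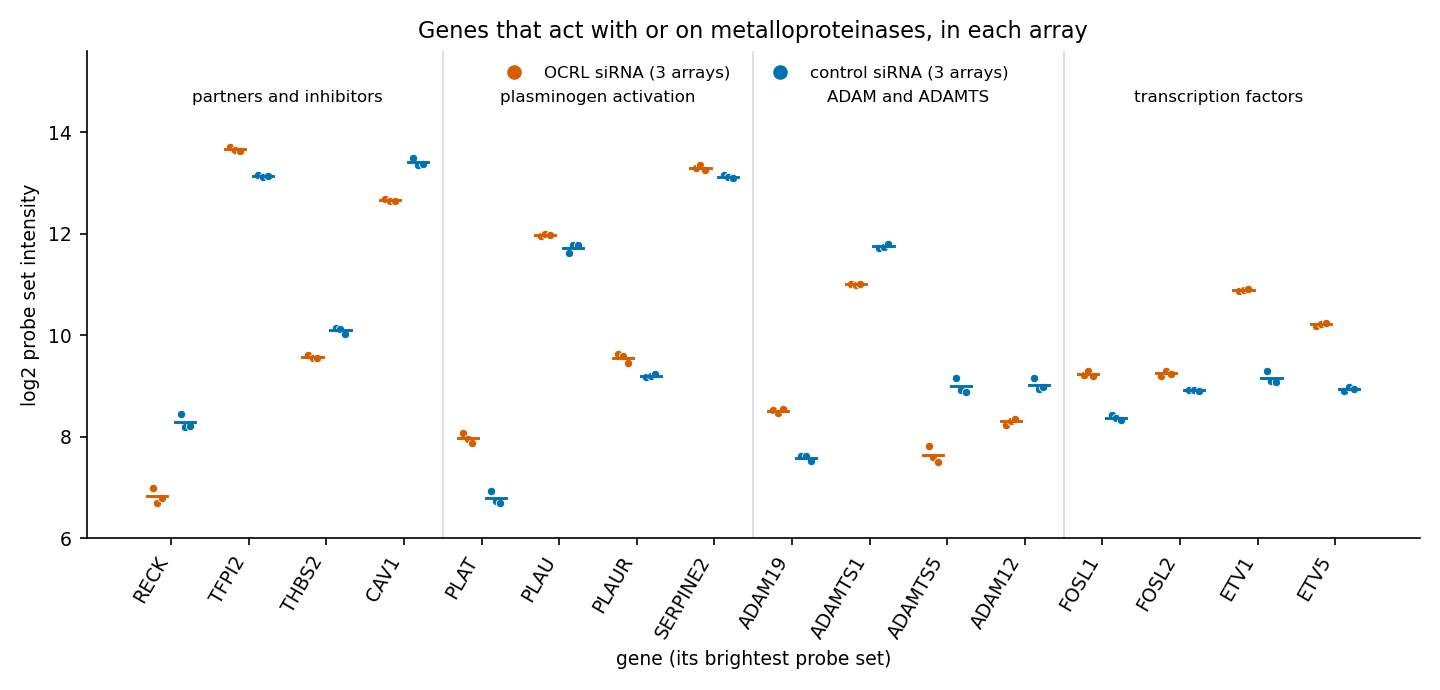
Log2 intensity (vertical axis) of the brightest probe set of 16 genes in the 3 OCRL siRNA arrays (orange) and the 3 control siRNA arrays (blue), in 4 sets of 4. Points are arrays and short lines group means. RECK, ADAMTS5, ADAMTS1, ADAM12, CAV1 and THBS2 are lower and the other genes higher in the OCRL siRNA arrays. The 16 genes were picked as called genes with the smallest p, so their lack of overlap follows largely from that choice. Groups did not overlap in 44.9% of all genes.

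The promoters of MMP1, MMP3 and MMP13 are known to be driven by AP-1 and ETS factors. Motifs of both are among those searched above, but these promoters were not available and were not searched. Of 25 measured factors of 26 listed, 9 rose and 4 fell, beside 15.5% and 10.5% of all genes. The list's median difference was 0.04. FOSL1, an AP-1 subunit, was at 9.23, 9.29 and 9.19 in OCRL siRNA cells, against 8.43, 8.37 and 8.32 in control cells (log2 difference 0.86, SE 0.0502, limma adjusted p = 8.98e-05). The ETS factor genes ETV1 (1.73, SE 0.0659) and ETV5 (1.27, SE 0.0434) and the AP-1 subunit gene FOSL2 (0.34, SE 0.044) rose too, and ETV1 differed by 0.94 as the mean of its probe sets. The 4 factors called lower were ELF3, ETS2, ATF3 and JUND, so the listed factors moved in both directions. The count of called factors was 8 without OCRL siRNA replicate 3, and after median centring 7 were higher and 6 lower. Binding of these factors was not measured.

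Of 24 measured cytokines, growth factors and receptors known to act on MMP genes, of 25 listed, 3 rose and 5 fell, beside 15.5% and 10.5% of all genes. The list's median difference was -0.10. TGFB2, a ligand gene of the TGF-beta family, fell 2.54-fold (log2 difference -1.35, SE 0.0624, limma adjusted p = 4.73e-05). Its other probe sets were also called lower, at -1.57, -1.31 and -0.37. The last was the only one kept when _s_at and _x_at probe sets were left out. The growth factor genes HBEGF (-0.94, SE 0.0503) and FGF2 (-0.80, SE 0.0464) fell, and VEGFA rose (0.76, SE 0.0539). As means of their probe sets HBEGF differed by -0.59 and FGF2 by -1.37. Of 39 measured matrix genes whose products metalloproteinases cut, of 42 listed, 6 rose and 10 fell, beside 15.5% and 10.5% of all genes. The list's median difference was -0.09. COL18A1 (-0.75, SE 0.0552), the tenascin gene TNC (-0.70, SE 0.0565) and the basement membrane collagen gene COL4A2 (-0.39, SE 0.0405) fell, and the basement membrane linker gene NID2 rose (0.76, SE 0.0617). TNC differed by -0.39 as the mean of its probe sets. The count of called matrix genes was 10 without OCRL siRNA replicate 3, and after median centring 4 were higher and 12 lower.

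The genes with the most alike profile over the 6 arrays were found by the root mean square difference of mean-centred log2 values, members aside. For MMP1 they were AKR1C3 (0.0792), CHST2 (0.0907) and CSGALNACT1 (0.114). For MMP3 they were SCG5 (0.245), LAPTM5 (0.366) and SIGLEC15 (0.400), so that MMP3 had no neighbour as near as that of MMP1. For MMP13 they were SULT1C2 (0.057), ETV1 (0.0593) and CD83 (0.0678). Over 6 arrays in 2 groups the measure mostly reflects the size of the group difference, and these 9 genes had log2 differences of 1.72 to 2.86.

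Markers of other cells that make metalloproteinases were examined beside these results. For comparison with the counts of each list, 26.0% of all genes were called, 15.5% higher and 10.5% lower. Of 8 measured monocyte and macrophage markers, 8 neutrophil markers and 7 endothelial markers, 0 were called in the limma fit, and at an unadjusted p under 0.05 there were 0, 0 and 2. The median level of the macrophage markers was 5.13 to 5.45 in the OCRL siRNA arrays and 5.12 to 5.28 in the control arrays. Of the 8 monocyte and macrophage markers 4 lay below the lower quartile on all arrays, among them the leukocyte marker PTPRC. The others, CSF1R, AIF1, ITGAM and CD14, lay above it on all arrays. Of 10 fibroblast markers 1 was called, LUM, which fell (log2 difference -0.61). PDGFRA, COL3A1, POSTN and FAP were below the lower quartile on all arrays, and LUM, COL1A1, PDGFRB, THY1 and DCN were above it on all. Of 4 osteoclast markers measured, NFATC1 was called higher (0.57). CTSK (-0.11), CALCR (-0.02) and TNFRSF11A (0.03) were not called, and TNFRSF11A lay below the lower quartile on all arrays. ACP5 and OCSTAMP were not measured. Of the 9 epithelial markers KRT7 (-1.49), EPCAM (-0.81), KRT19 (-0.38), KRT8 (-0.38) and TJP1 (-0.32) fell and CLDN1 rose (0.46). Their median level was 10.59 to 10.70 in the OCRL siRNA arrays and 11.33 to 11.43 in the control arrays. Of 10 measured genes listed as proximal tubule markers, PAX8 was called lower (-0.29) and ANPEP higher (0.56). ANPEP lay below the lower quartile on all arrays, at means of 4.80 in OCRL siRNA cells and 4.24 in control cells. The size of its change is therefore not read. The part of these markers in the results was not tested.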

How the data were processed

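Biotin-labelled RNA of 6 HK2 samples was hybridised to 1-colour Affymetrix arrays, per the labels' protocols. The authors deposited log2 intensities per probe set. The submitters' processing notes name affy and RMA, and their versions are not given in the sources used here. RMA gives arrays a common distribution and compresses dim probe sets. Of 22277 probe sets, 62 controls were left out. A single symbol was given for 19064, several for 1043 and none for 2108. Symbols came from the platform annotation, and 19052 matched RefSeq by Entrez identifier with 0 changed. The comparison used limma 3.58.1 under R 4.3.3 (lmFit and eBayes, group the only term, two-sided), and the fit was tested on simulated data. OCRL was also tested by exact permutation over 20 assignments. Figures used matplotlib 3.10.9 in Python 3.11.15.

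The members and the 16 gene lists were chosen with earlier results of these data known. From each list without markers, other than the flanking and family genes, up to 4 called genes with the smallest p were named. The 4 transcription factors called lower were named as well. For MMP1, MMP3 and MMP13 the 3 most alike genes were named. Called genes of the marker lists were picked for naming once their values had been seen. The alternatives tried were the replicate block, each array left out, quantile normalisation, median centring, eBayes trend and robust settings, dim probe sets (mean below the median of all) left out, _s_at and _x_at probe sets left out, and the mean of a gene's probe sets. The labels call the replicates independent experiments.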

Additional observations from a re-analysis of the deposited data

How the results depend on the processing

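The calls of MMP1, MMP3, MMP7, MMP14 and TIMP2 were kept in each of the 13 alternatives, and MMP13 in the 12 that kept its probe set (it is dim by the filter used). The count of called members ranged from 6 to 7. Leaving out single arrays gave log2 differences of 2.59 to 2.96 for MMP3, 1.92 to 1.94 for MMP1 and 1.74 to 1.87 for MMP13. All called probe sets numbered 3576 to 4898 with 1 array left out and 2348 with _s_at and _x_at probe sets left out, where fewer were tested (11813). Other MMP and TIMP genes called numbered 1 to 3 with 1 array left out and 0 without _s_at and _x_at probe sets, a setting without MMP24. The OCRL difference ran from -2.05 to -1.99 with 1 array left out, and its probe sets are all of the _s_at kind, so that setting gave no value for it. CASP4 had a log2 difference of -0.22 from its dim probe set when _s_at and _x_at probe sets were left out. Plasminogen genes called numbered 7 with trend and robust settings or with dim probe sets left out and 1 without _s_at and _x_at probe sets, where the counts of factors and cytokines were 7 and 4. The other causes were not tested.

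Same-numbered arrays correlated in their deviations from the group mean by 0.142, 0.123 and -0.009 for replicates 1, 2 and 3. For OCRL siRNA replicates 1 and 2 the same-numbered control gave the highest correlation. For replicate 3 the highest was 0.040, with control replicate 1. The labels do not say whether the numbers pair the arrays, and these values do not settle it. The main fit did not take the numbers as pairs. With replicate number as a block 4571 probe sets, 7 members and 1 other family gene were called, OCRL differed by -2.02, and 0 flanking genes were called. Of 58 single genes, 45 kept their call, or their lack of one, in every setting that gave them a value. Signal near the lower quartile limits MMP2, MMP10 and TIMP3, and in the control arrays also MMP13.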
